A study of Mus musculus with 9 samples.

Results

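The histone deacetylase genes described here are 10 zinc-dependent deacetylases of the mouse, Hdac1, Hdac2, Hdac3, Hdac4, Hdac5, Hdac6, Hdac7, Hdac9, Hdac10 and Hdac11. They were taken by symbol from the 56748 genes of a count table of whole brain at embryonic day 14 (E14), and all 10 were among the 17171 genes with enough counts to be tested. RNA was sequenced from 9 brains, namely 3 saline controls, 3 from the poly(I:C) group and 3 from the valproic acid group. The labels name no genotype change, dose, day of exposure, litter, sex, strain or batch, and they do not say whether the 3 samples of a group came from separate dams, so a p-value here reflects only how far these samples spread, which may be technical. Valproic acid is an antiepileptic drug and a histone deacetylase inhibitor, and poly(I:C) is a synthetic double-stranded RNA used to provoke an antiviral immune response in the pregnant dam. The question addressed is whether the transcripts of the drug's target family and of its relatives differed after either exposure.

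Histone deacetylases remove acetyl groups from lysines of histones and other proteins, and acetylated histones mark open, transcribed chromatin. Class I enzymes (Hdac1, Hdac2, Hdac3) work in nuclear corepressor complexes, class IIa proteins (Hdac4, Hdac5, Hdac7, Hdac9) have weak activity of their own and repress MEF2 factors until kinases and 14-3-3 proteins carry them out of the nucleus, class IIb enzymes (Hdac6, Hdac10) act largely in the cytoplasm, and Hdac11 alone forms class IV. In the developing brain, Hdac1 and Hdac2 together allow neural progenitors to become neurons. Valproic acid blocks the enzymes, chiefly those of class I, and the counts measure RNA, not enzyme activity.

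The libraries held 15399974 to 19883131 counts. Levels are given as CPM, the count scaled to library size, and pairs of libraries within a group differed by more than counting noise (chi-square over its degrees of freedom from 3.73 to 6.01). RNA that marks sex did not fall evenly over the groups. Xist, transcribed from the inactive X of females, stood at 981 to 1055 CPM in 4 libraries, all 3 of valproic acid plus the third of poly(I:C), and at most at 0.236 CPM in the other 5. The summed level of 4 Y-linked genes (Ddx3y, Uty, Kdm5d, Eif2s3y) was 196 to 201 CPM in replicates 1 and 2 of the control and poly(I:C) groups, and 0 in the rest. Control replicate 3 therefore held neither signal. Every valproic acid library was Xist-rich and no control library was, so sex and valproic acid exposure cannot be told apart in these samples.

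Markers of the labelled tissue were present, and the makeup of cell type markers differed between valproic acid and both other groups. Of 8 markers of postmitotic neurons, 4 were lower by the test used below and none higher, with summed levels of 6593 to 6984 CPM after valproic acid against 7196 to 7393 CPM in controls. All 4 markers of intermediate progenitors were higher (577 to 620 against 434 to 462 CPM), as were 2 of 8 radial glia markers (1993 to 2069 against 1846 to 1882 CPM). Among non-neural cells, 4 of 10 erythroid markers were higher (2258 to 2619 against 1794 to 2093 CPM) and 2 of 8 markers of microglia and macrophages were lower (68.3 to 76.8 against 81.8 to 88.3 CPM). Of the endothelial markers 1 of 6 was higher (280 to 305 against 273 to 286 CPM), and 0 of 4 choroid plexus markers were called. Of the 6 mural and fibroblast markers 1 was lower, Rgs5 (log2 −0.26), while the rest leaned higher without being called. The median of that list was 0.16, and its sums were 733 to 924 against 753 to 801 CPM. Over all tested genes, 3.57% were called higher and 2.78% lower between valproic acid and control. Between valproic acid and poly(I:C), 8 of 10 erythroid markers were higher (2258 to 2619 against 1386 to 2018 CPM), as were 3 of 4 of intermediate progenitors (577 to 620 against 469 to 499 CPM), 3 of 6 mural and fibroblast markers (733 to 924 against 664 to 697 CPM), 1 of 8 of radial glia and 1 of 6 endothelial ones, and 3 of 8 neuronal markers were lower (6593 to 6984 against 7161 to 7543 CPM). Of all tested genes, 1.42% were called higher and 1.18% lower between the exposures. Between poly(I:C) and control, 1 marker was called, of intermediate progenitors, and it was higher, beside 0.262% of all tested genes. After poly(I:C), the summed markers of microglia and macrophages lay below controls (75.4 to 77.2 against 81.8 to 88.3 CPM). So did those of mural cells and fibroblasts (664 to 697 against 753 to 801 CPM). Those of intermediate progenitors (469 to 499 against 434 to 462 CPM) and radial glia (1884 to 1953 against 1846 to 1882 CPM) lay above. No marker was at 0 in all libraries. The part of these shifts in the deacetylase values was not tested, and in whole tissue fewer cells of a type and less RNA per cell cannot be told apart.

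All 10 deacetylases were expressed in E14 brain, over a wide range. Compared per length, as CPM per kilobase of annotated exon, Hdac2 was the most abundant in controls at 78.6 ± 2.66 (SD, n = 3). Hdac3 followed at 28.1 ± 0.927, Hdac5 at 20.9 ± 1.06, Hdac6 at 17.5 ± 0.508 and Hdac1 at 17.0 ± 0.25. Hdac11 at 11.1 ± 0.707 and Hdac7 at 10.7 ± 0.667 came next, then Hdac10 at 5.93 ± 0.199, Hdac4 at 3.57 ± 0.132 and Hdac9 at 1.60 ± 0.0828. Neighbours in this order did not overlap between libraries except Hdac6 with Hdac1 and Hdac11 with Hdac7. The order was the same after poly(I:C), and after valproic acid only those same pairs of neighbours changed places. They also changed places in controls when the longest coding transcript was used as the length. The place of Hdac1 in the order is uncertain. Gm10093, a near-identical pseudogene described below, held counts equal to 37.8% to 46.1% of those of Hdac1, and they are left out here. Each member's level per length is shown by group in the plot of levels on a log scale.

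**Figure D1:**
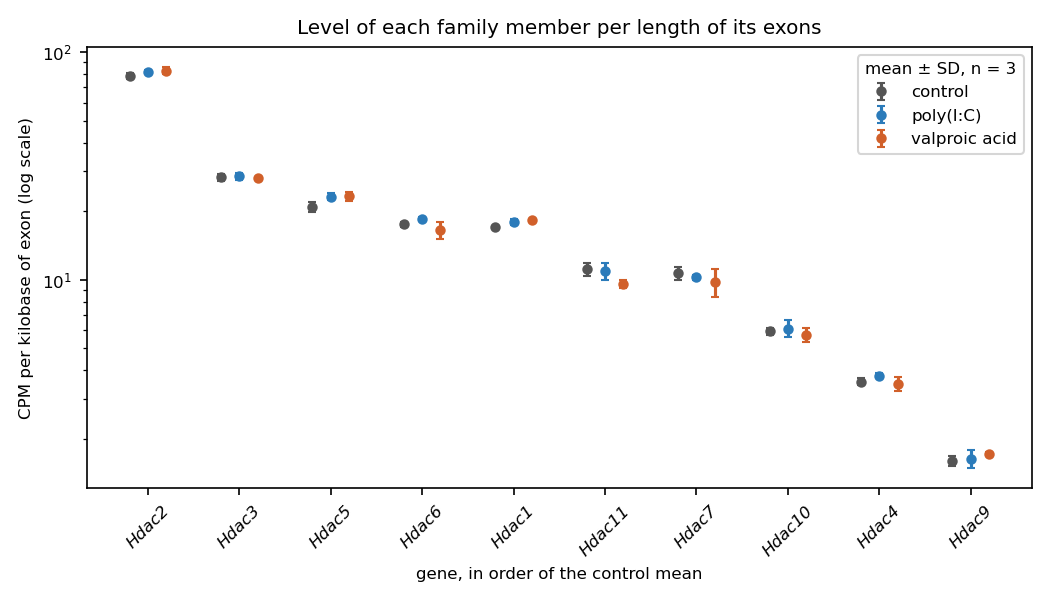
Level of each deacetylase per kilobase of exon (CPM per kilobase, log axis), as mean ± SD of 3 libraries per group, in the order of the control means. Hdac2 stands highest at 78.6 and Hdac9 lowest at 1.60 in controls, and the 3 groups lie close together for every gene.

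No deacetylase transcript passed edgeR's test after either exposure. With edgeR's quasi-likelihood test and Benjamini-Hochberg adjustment over all 17171 genes, 0 of 10 members had an adjusted p under 0.05 between valproic acid and control, where 6.35% of all tested genes were called. At an unadjusted p under 0.05, 3 of 10 members differed (Hdac1 and Hdac5 higher, Hdac11 lower), beside 22.1% of all genes, and DESeq2 called 1 member, Hdac5. Libraries of the groups did not overlap for 4 of 10 members, Hdac1, Hdac5 and Hdac9 being higher and Hdac11 lower, beside 25.6% of all genes. These shares of a list of 10 are near those of all genes. For poly(I:C) against control, 0 of 10 were called (0.536% of all genes), 1 at the unadjusted level (Hdac5, beside 12% of all genes), and 2 did not overlap (Hdac5 and Hdac6, both higher, beside 18.4%); DESeq2 called none. For valproic acid against poly(I:C), 0 of 10 were called (2.59% of all genes), 2 at the unadjusted level (Hdac6 and Hdac11, both lower, beside 16.6%), and 1 did not overlap (Hdac6, beside 21.9%); DESeq2 called none here either.

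The sizes of the differences were small, and the intervals bound them. Between valproic acid and control, 4 members were higher and 6 lower, with a median log2 fold change of −0.018 beside −0.0033 over all tested genes, and a median absolute value of 0.0897 beside 0.118. The 95% intervals of the 10 members lay between 1.29-fold lower and 1.21-fold higher, so all 10 stayed within 1.3-fold either way. Between poly(I:C) and control, 8 members were higher and 2 lower, with a median of 0.052 and intervals from 1.17-fold lower to 1.19-fold higher, and between valproic acid and poly(I:C) the intervals ran from 1.27-fold lower to 1.18-fold higher. No member's log2 fold change exceeded 0.25 in size in any of the 3 comparisons. That size was passed by 23.6%, 18% and 21% of all genes for valproic acid against control, poly(I:C) against control and valproic acid against poly(I:C). The members held 274 to 7343 counts a library, and all tested genes were not matched to them in level. These shares and medians therefore cannot show whether the family was steadier than genes of like level. Valproic acid and poly(I:C) were both compared with the same 3 controls, so their values for a member share that error. The plot of CPM by library and the plot of differences with their intervals give each member's values, and the plot over all tested genes places the 10 members among the rest.

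**Figure D2:**
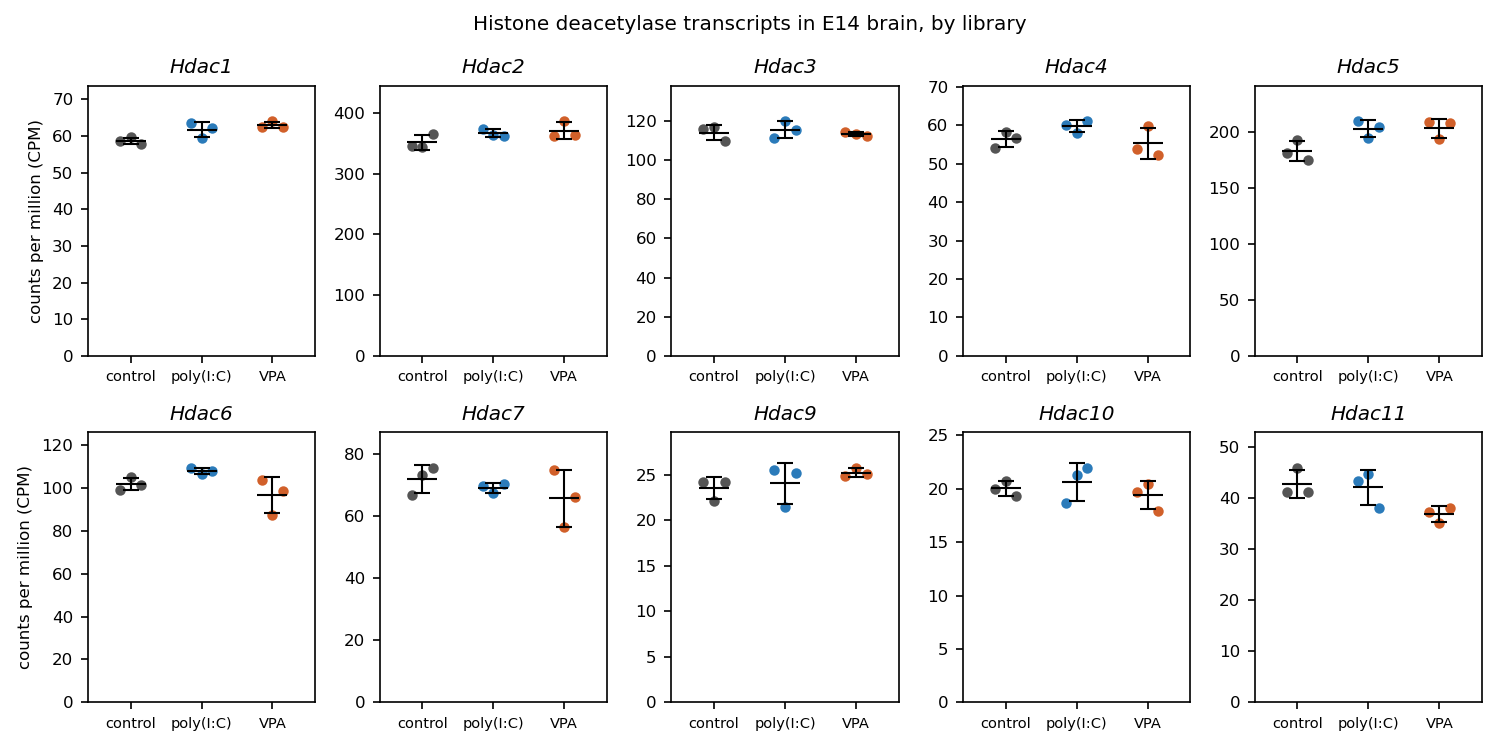
CPM of the 10 deacetylases in each of 9 libraries (points), by group, with mean ± SD (bars, n = 3) and axes from 0; VPA stands for valproic acid. Hdac11 is lower in all 3 valproic acid libraries (35.1 to 38.1 CPM) than in the controls (41.1 to 45.9 CPM).

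**Figure D3:**
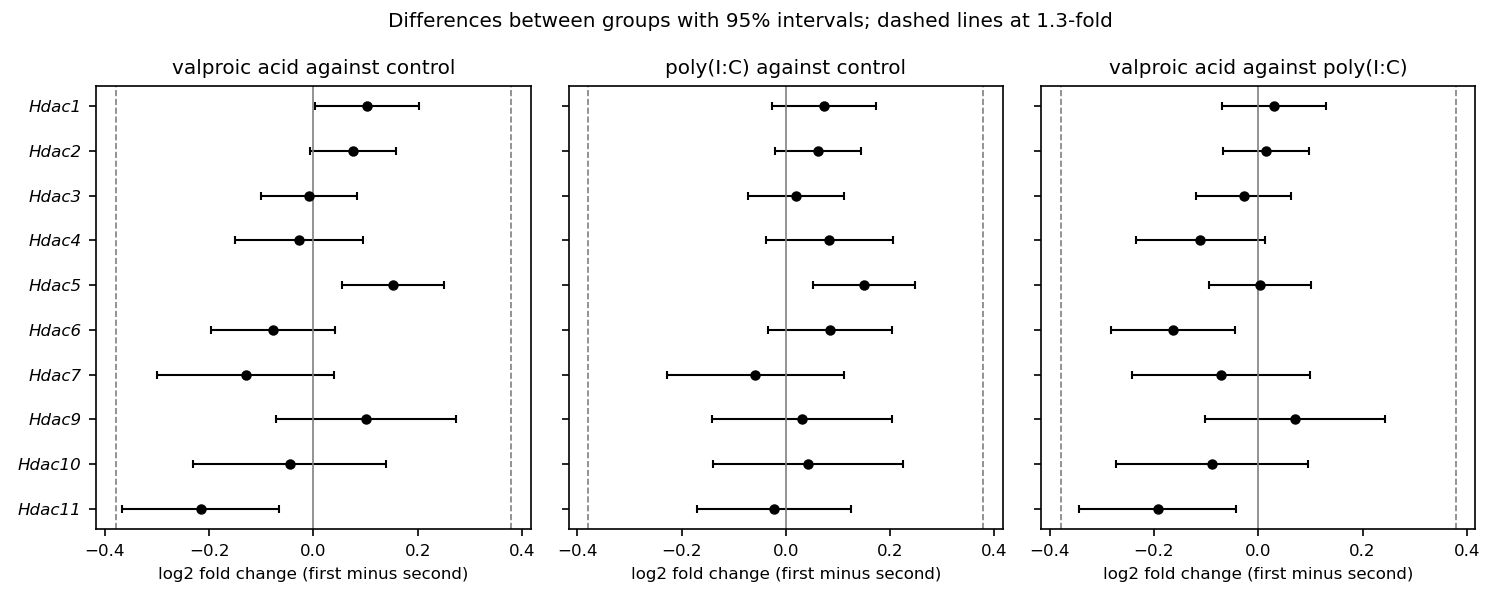
Log2 fold change (points) with its 95% interval (bars) for each deacetylase in the 3 comparisons, from edgeR's fit of all 9 libraries. Dashed lines mark 1.3-fold, and the interval that reaches lowest is that of Hdac11 between valproic acid and control, from −0.37 to −0.066.

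**Figure D4:**
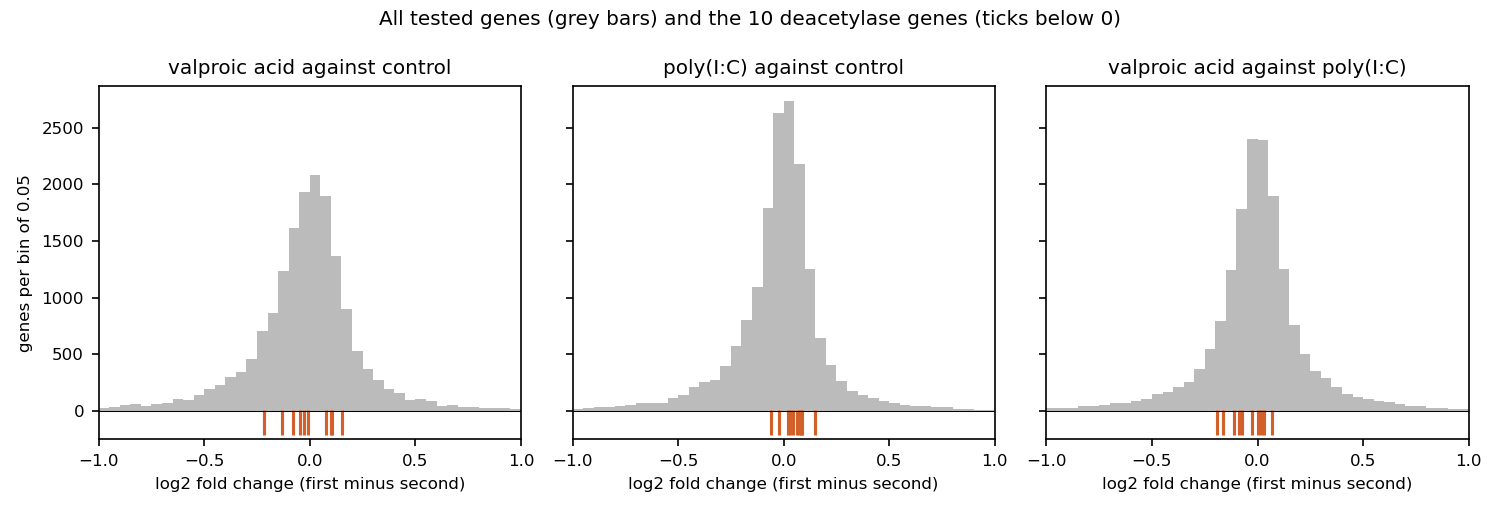
Number of tested genes in bins of log2 fold change (grey bars) for the 3 comparisons, with the 10 deacetylases as orange ticks under the axis. Genes beyond −1 and 1 are outside the plot, and all 10 deacetylases lie within 0.25 of 0.

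Among the class I enzymes, Hdac1 and Hdac2, the paired catalytic subunits of the SIN3, NuRD and CoREST complexes, were slightly higher after valproic acid by values that did not pass the test. Hdac1 was at 58.6, 59.6 and 57.9 CPM in controls, 63.6, 59.5 and 62.2 CPM after poly(I:C), and 62.5, 64.1 and 62.5 CPM after valproic acid. All 3 valproic acid libraries lay above all controls, whereas the poly(I:C) libraries overlapped both groups. The log2 fold change was 0.10 (SE 0.0469, edgeR adjusted p = 0.211) for valproic acid and 0.073 (adjusted p = 0.584) for poly(I:C), each against control.

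The Hdac1 value carries an uncertainty of counting, because a processed pseudogene, Gm10093, is nearly identical to its coding sequence. Aligned over 1444 bases of the GENCODE M21 transcripts, Hdac1 and Gm10093 differed at 9 bases, an identity of 99.38% with no gap and a longest identical run of 450 bases. The stretch printed here, coding bases 393 to 482 of Hdac1, holds 6 of those 9 differences; capitals mark them, and positions are counted from 1 at the 5′ end of the stretch (C16T, T49A, A68G, C73T, C80T, T90C).
Hdac1: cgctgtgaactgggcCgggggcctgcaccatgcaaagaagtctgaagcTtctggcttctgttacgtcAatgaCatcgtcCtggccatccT
Gm10093: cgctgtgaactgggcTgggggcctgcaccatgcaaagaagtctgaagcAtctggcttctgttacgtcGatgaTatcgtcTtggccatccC
Of all windows of 150 bases in the Hdac1 coding sequence, 54.23% were the same in both genes, and of windows of 50 bases 80.07% were. The table gave Gm10093 375 to 537 counts in the 9 libraries, equal to 37.8% to 46.1% of the count of Hdac1 itself, and how reads that match both were shared out is not given in the sources used here. With the pseudogene's counts added to Hdac1, the log2 fold change between valproic acid and control was 0.076 (edgeR adjusted p = 0.360), and with 2 further copies (Gm4864, 94.55% identical, and AC125456.1, 96.28% identical) added as well it was 0.085 (adjusted p = 0.310). Apart from Hdac1, no member had a transcript on the same strand with 90% identity over 200 bases or more.

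Hdac2 was at 346, 344 and 365 CPM in controls, 374, 365 and 363 CPM after poly(I:C), and 363, 386 and 363 CPM after valproic acid. Each exposed group overlapped the controls, through control replicate 3. Its log2 fold change was 0.076 (SE 0.0386, edgeR adjusted p = 0.271) for valproic acid against control, 0.044 without valproic acid replicate 2, and 0.062 (adjusted p = 0.575) for poly(I:C) against control. The count ratio of Hdac2 to Hdac1, which also carries their lengths, was 5.99 ± 0.282 in controls, 5.95 ± 0.155 after poly(I:C) and 5.88 ± 0.134 after valproic acid (SD, n = 3). The exact permutation p was 0.7 for valproic acid against control, two-sided, where 3 against 3 cannot go below 0.1. The counts of Gm10093 are left out of this ratio, so its level is as uncertain as that of Hdac1.

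Hdac3, the catalytic subunit of nuclear receptor corepressor complexes, had the smallest differences from control after either exposure. It was at 114 ± 3.76 CPM in controls, 116 ± 4.27 CPM after poly(I:C) and 113 ± 1.21 CPM after valproic acid, and every pair of groups overlapped. The log2 fold change between valproic acid and control was −0.0092, with a 95% interval from −0.10 to 0.083. Summed, the 3 class I genes gave 525 ± 7.44 CPM in controls, 544 ± 4.49 CPM after poly(I:C) and 547 ± 14.5 CPM after valproic acid. The controls (520 to 533 CPM) lay below both exposed groups (540 to 549 and 538 to 564 CPM), and these sums follow mainly Hdac2. This was not particular to class I. Summed over all 10 members, controls (1008 to 1039 CPM) also lay below poly(I:C) (1058 to 1086 CPM) and valproic acid (1043 to 1063 CPM). Of all tested genes, 25.6% did not overlap between valproic acid and control and 18.4% between poly(I:C) and control.

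Of the class IIa proteins, Hdac5, an activity-regulated repressor of MEF2 factors in neurons, had the smallest p of the family in both comparisons with control. It was at 182, 193 and 175 CPM in controls, 210, 195 and 205 CPM after poly(I:C), and 209, 194 and 208 CPM after valproic acid. Every library of either exposed group lay above every control, although the gap between control replicate 2 and valproic acid replicate 2 was narrow. The difference was 1.11-fold for valproic acid (log2 0.15, SE 0.0459, 95% interval 0.054 to 0.25, edgeR adjusted p = 0.0631) and 1.11-fold for poly(I:C) (log2 0.15, SE 0.0459, adjusted p = 0.204). Valproic acid and poly(I:C) differed from each other by a log2 of 0.0028 (adjusted p = 0.984).

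The call for Hdac5 depended on the analysis. DESeq2's Wald test gave valproic acid against control an adjusted p of 0.0270, and edgeR without a filter on low counts gave 0.0328. It also passed with control replicate 2 left out (edgeR adjusted p = 0.0375) and with valproic acid replicate 2 left out (0.0454), while the largest value over all alternatives was 0.673, with Xist as a covariate. The log2 fold change stayed positive in all 17 alternatives, from 0.12 to 0.19. For poly(I:C) against control no alternative passed, with adjusted p from 0.0892 to 0.506.

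None of the other class IIa members passed the test in any comparison. Hdac4, a repressor of MEF2 factors and RUNX factors, was at 56.4 ± 2.08 CPM in controls, 59.8 ± 1.51 CPM after poly(I:C) and 55.3 ± 4.0 CPM after valproic acid. Its groups overlapped in every comparison, and the log2 fold change between valproic acid and control was −0.028 (SE 0.0577, edgeR adjusted p = 0.826). A gene annotated on the opposite strand, Gm26720, overlaps 3536 bases of Hdac4 exons, and whether the counting used strand is not given in the sources used here.

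Hdac7, best known from blood vessels and thymocytes, was at 66.9, 73.3 and 75.6 CPM in controls and at 74.8, 56.5 and 66.1 CPM after valproic acid. Valproic acid replicate 2 was the lowest of the 9 libraries and replicate 1 was among the highest, a coefficient of variation of 13.9% where counting alone gives 3.05%. The log2 fold change was −0.13 (SE 0.0796, edgeR adjusted p = 0.367), and −0.031 without valproic acid replicate 2. After poly(I:C), Hdac7 was at 69.2 ± 1.51 CPM, within the range of the controls.

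Hdac9, the least abundant member per length, was at 24.2, 22.1 and 24.2 CPM in controls, 25.5, 21.4 and 25.2 CPM after poly(I:C), and 24.9, 25.8 and 25.1 CPM after valproic acid. The valproic acid libraries lay just above the controls and the poly(I:C) libraries spanned both. The log2 fold change between valproic acid and control was 0.10 (SE 0.0808, edgeR adjusted p = 0.505), 0.060 without control replicate 2 and −0.0047 with Xist as a covariate. Together the 4 class IIa genes gave 335 ± 10.6 CPM in controls, 356 ± 12.7 CPM after poly(I:C) and 350 ± 13.3 CPM after valproic acid, with overlap between the groups.

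The class IIb pair was led by Hdac6, the X-linked cytoplasmic deacetylase of alpha-tubulin, cortactin and HSP90. It was at 99.0, 105 and 101 CPM in controls, 109, 107 and 108 CPM after poly(I:C), and 104, 87.3 and 98.3 CPM after valproic acid. All 3 poly(I:C) libraries lay above all controls and above all valproic acid libraries, and valproic acid replicate 2 was the lowest of the 9. The log2 fold change was 0.085 (edgeR adjusted p = 0.594) for poly(I:C) against control and −0.078 (SE 0.0557, adjusted p = 0.446) for valproic acid against control, which became −0.012 without valproic acid replicate 2.

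Between the exposures, Hdac6 had the smallest p of the family. It was 1.12-fold lower after valproic acid than after poly(I:C) (log2 −0.16, SE 0.0557, edgeR adjusted p = 0.141). Over the alternatives the adjusted p ran from 0.0474, without a filter on low counts, to 0.530, with Xist as a covariate. The value was −0.095 without valproic acid replicate 2.

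Hdac10, a deacetylase of acetylated polyamines, had the fewest counts of the family, from 274 to 389 a library. It was at 20.0 ± 0.673 CPM in controls, 20.6 ± 1.74 CPM after poly(I:C) and 19.4 ± 1.303 CPM after valproic acid. Its groups overlapped in all comparisons, and its log2 fold change between valproic acid and control was −0.046 with a 95% interval from −0.23 to 0.14. At this depth counting alone gives a coefficient of variation of 5.61% after valproic acid, against 1.28% for Hdac2.

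Hdac11, the only class IV enzyme, which removes long fatty acyl groups from lysines and is rich in brain, had the largest difference between valproic acid and control of the 10. It was at 41.2, 45.9 and 41.1 CPM in controls, 43.3, 44.6 and 38.0 CPM after poly(I:C), and 37.2, 35.1 and 38.1 CPM after valproic acid. All 3 valproic acid libraries lay below all controls, and of the poly(I:C) libraries replicate 3 lay with valproic acid while the others lay with the controls. The level was 1.16-fold lower after valproic acid than in controls (log2 −0.22, SE 0.0703, 95% interval −0.37 to −0.066, edgeR adjusted p = 0.0821) and 1.14-fold lower than after poly(I:C) (log2 −0.19, SE 0.0704, adjusted p = 0.174). Poly(I:C) differed from control by a log2 of −0.023 (adjusted p = 0.930).

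The libraries with low Hdac11 were the Xist-rich ones. In the 4 libraries with Xist it was at 35.1 to 38.1 CPM, and in the other 5 at 41.1 to 45.9 CPM, with no overlap, and it was the only member so divided. Such a division was found in 4.6% of all tested genes. With Xist as a covariate, a fit in which poly(I:C) replicate 3 alone parts Xist from the drug, the log2 fold change between valproic acid and control was −0.0045 (edgeR adjusted p = 0.997), and with the Y-linked genes as a covariate −0.12 (adjusted p = 0.460). Over the other alternatives it lay between −0.24 and −0.16, and the adjusted p passed the threshold once, at 0.0414 without a filter on low counts. Genes annotated antisense to Hdac11, Gm44002 and Gm14573, had 0 counts in every library. The plot of members beside sex-linked RNA shows this division for Hdac11 and its absence for Hdac5, Hdac6 and Hdac7.

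**Figure D5:**
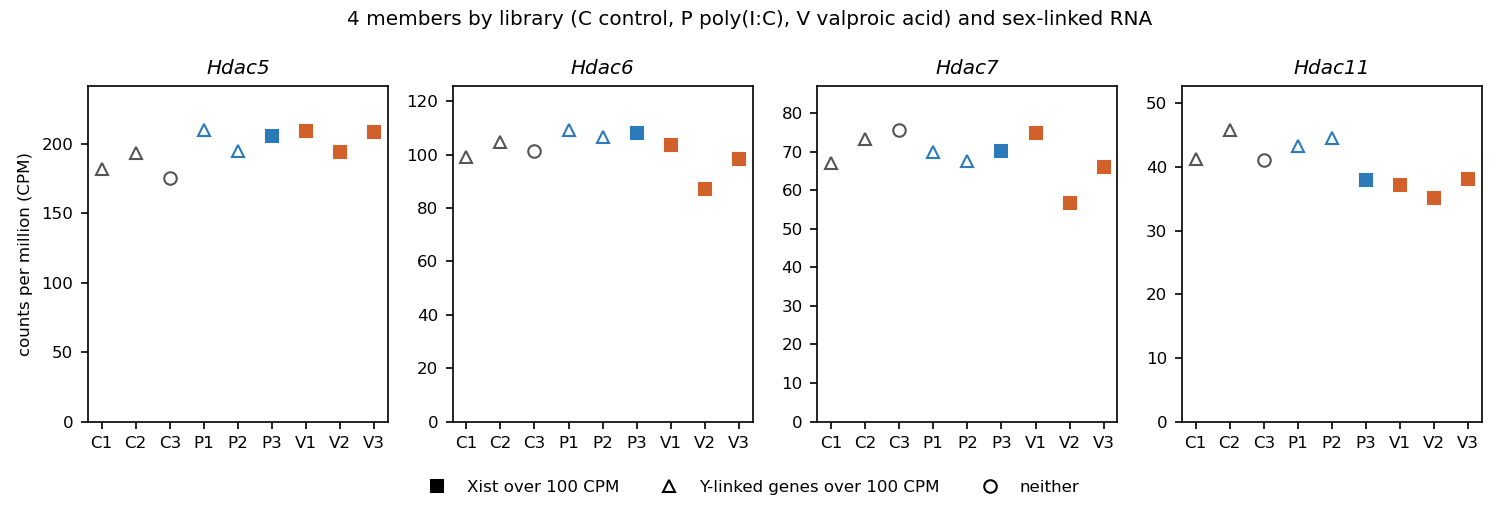
CPM of Hdac5, Hdac6, Hdac7 and Hdac11 in each library (C control, P poly(I:C), V valproic acid, with the replicate number), axes from 0. Filled squares are libraries with Xist over 100 CPM, triangles those with Y-linked RNA over 100 CPM and the circle is control replicate 3, with neither. Hdac11 is at 35.1 to 38.1 CPM in the 4 squares and at 41.1 to 45.9 CPM in the other 5 libraries.

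The members did not move as 1 block. Over the 9 libraries, Pearson's r of log2 CPM in the 45 pairs of members ran from −0.76 (Hdac9 with Hdac11) to 0.81 (Hdac1 with Hdac5), with a median of 0.055; the libraries share their group and scaling, and r is given as a description. Hdac6 and Hdac7 had an r of 0.94 within groups, both being lowest in valproic acid replicate 2. The 10 genes together gave 1024 ± 15.5 CPM in controls, 1071 ± 13.9 CPM after poly(I:C) and 1050 ± 11.6 CPM after valproic acid. The count ratio of Hdac5 to Hdac11, a pair picked after the values were seen, was 4.30 ± 0.102 in controls, 4.87 ± 0.515 after poly(I:C) and 5.54 ± 0.0782 after valproic acid (SD, n = 3). Every valproic acid library lay above all controls in Hdac5 and below all controls in Hdac11, so this ratio had to separate the groups. Its exact permutation p of 0.1, the smallest that 3 against 3 allows, therefore adds nothing to the values of the 2 genes. Other ratios overlapped between control and valproic acid. Hdac5 to Hdac4 was 3.09 to 3.35 in controls and 3.25 to 3.99 after valproic acid (exact permutation p = 0.3). Hdac6 to Hdac10 was 4.95 to 5.24 and 4.27 to 5.48.

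Hdac5 and Hdac11 had the smallest p-values of the family, and the genes most like them were sought among the 10567 genes whose mean reached 10 CPM. For Hdac5 these were Nfe2l1 (r = 0.99 over 9 libraries), Nxf1 (0.97) and Erbb2 (0.97), which encode a stress-response transcription factor, an mRNA export receptor and a receptor tyrosine kinase. Erbb2 was at 19.4 ± 1.60 CPM in controls, 23.0 ± 1.51 CPM after poly(I:C) and 23.2 ± 1.39 CPM after valproic acid. For Hdac11 they were Chmp2b (0.97), Jakmip1 (0.96) and Mtfr1l (0.95), the first a component of the membrane-sorting machinery ESCRT. Chmp2b was at 34.8 ± 1.67, 35.3 ± 2.85 and 29.9 ± 1.13 CPM in the same order of groups. None of these 6 genes was called in any comparison by edgeR's quasi-likelihood test.

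Among the genes that work with the deacetylases, those called between valproic acid and control included acetyltransferases and a corepressor. The lists were chosen with earlier results of these data known. Their counts beside the shares of all genes are therefore a description and not a test of the lists. Of 14 histone acetyltransferases, which add the mark that deacetylases remove, 3 rose and none fell between valproic acid and control, where 3.57% of all tested genes rose and 2.78% fell, with a median log2 fold change of 0.11 beside −0.0033 over all tested genes. Ep300 rose 1.20-fold, from 135 ± 5.60 to 163 ± 12.8 CPM (edgeR adjusted p = 0.00882), Kat6b 1.12-fold (0.0257) and Crebbp 1.13-fold (0.0265). The call of Ep300 held whichever library was left out, and those of Kat6b and Crebbp did not. Of 16 corepressor scaffolds that carry Hdac1, Hdac2 or Hdac3, 1 rose and none fell, with a median of 0.092. That count is near the share of all tested genes called in this comparison, 6.35%. The gene was Rcor2, a CoREST subunit, which was 1.17-fold higher, from 208 ± 6.74 to 244 ± 5.19 CPM (edgeR adjusted p = 0.00615). The 9 bromodomain readers of acetyl-lysine had a median of 0.11 with none called, Brd1 having the smallest p (137 ± 1.80 against 149 ± 5.48 CPM, adjusted p = 0.0776). Between poly(I:C) and control, none of the 14 acetyltransferases was called, with a median of 0.045. Ep300 was at a log2 of 0.15 there, Crebbp at 0.11 and Kat6b at 0.072. None of the 14 was called between valproic acid and poly(I:C), with a median of 0.053.

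Of the partners of the class IIa proteins, 1 of 3 tested MEF2 factors and 2 of 12 kinases were called between valproic acid and control, beside 6.35% of all genes. Mef2c, the MEF2 factor that drives neuronal differentiation and is held in check by class IIa proteins, fell 1.20-fold after valproic acid, from 118 ± 7.79 to 98.4 ± 3.23 CPM (edgeR adjusted p = 0.0222). Of the kinases that phosphorylate class IIa proteins, Prkd3 rose 1.22-fold, from 102 ± 2.76 to 125 ± 3.62 CPM (adjusted p = 0.00213), and Camk4 fell 1.31-fold, from 11.5 ± 0.448 to 8.80 ± 0.725 CPM (0.0455). None of the 7 genes for 14-3-3 proteins was called after valproic acid, and Sfn, at 0.221 ± 0.152 against 0.488 ± 0.170 CPM, had the smallest p (adjusted p = 0.285). Between poly(I:C) and control, 1 of these 7 was called, Ywhag, beside 0.536% of all genes. It was 1.11-fold higher after poly(I:C), at 1123 ± 8.59 against 1014 ± 21.7 CPM (edgeR adjusted p = 0.0438). In that comparison Mef2c was at a log2 of −0.19 (edgeR adjusted p = 0.221), Camk4 at −0.24 (0.380) and Prkd3 at 0.088 (0.460). No MEF2 factor was called between valproic acid and poly(I:C).

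In the lists around class IIb, 2 of 10 genes of polyamine metabolism rose after valproic acid, beside 3.57% of all genes, Oaz2 1.18-fold (edgeR adjusted p = 0.00286) and Oaz1 1.11-fold (0.0487), both being antizymes that restrain polyamine synthesis. Oaz2 was at 163, 163 and 161 CPM in controls, 188, 189 and 192 CPM after poly(I:C), and 192, 202 and 183 CPM after valproic acid. It rose 1.17-fold after poly(I:C) as well (edgeR adjusted p = 0.0205), and the controls are shared. In that comparison 1 of the 10 was called, beside 0.536% of all genes. Of 6 substrates and partners of Hdac6, Hsp90ab1, an HSP90 gene, rose 1.10-fold after valproic acid, from 2496 ± 65.2 to 2740 ± 84.9 CPM (adjusted p = 0.0185), and Tuba1a, for alpha-tubulin, was not called.

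The NAD-dependent sirtuins, which remove acetyl groups by another chemistry, gave 0 of 7 called in all 3 comparisons, Sirt4 having the smallest p after valproic acid (17.0 ± 0.816 against 15.2 ± 0.491 CPM, edgeR adjusted p = 0.304). Hdac8, the class I enzyme outside the 10, was at 15.2 ± 1.83 CPM in controls and 14.95 ± 1.62 CPM after valproic acid. Of 10 genes often induced by deacetylase inhibitors in cultured cells, none was called between valproic acid and control. H1f0, the linker histone H1.0 and a classic marker of such inhibitors, was at 487 ± 21.0 CPM in controls and 543 ± 44.8 CPM after valproic acid (adjusted p = 0.0742), and Cdkn1a, for the cell-cycle inhibitor p21, was at 16.7 ± 1.21 and 16.4 ± 0.721 CPM (adjusted p = 0.935). Between valproic acid and poly(I:C), 1 of the 10 was called, H1f0, beside 2.59% of all tested genes. It was 1.23-fold higher after valproic acid than after poly(I:C), where it stood at 440 ± 2.23 CPM (edgeR adjusted p = 0.00683). That poly(I:C) level was itself below controls by a log2 of −0.14, which was not called (edgeR adjusted p = 0.256).

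Of the 16 calls in these lists over the 3 comparisons, 5 kept an adjusted p under 0.05 whichever library was left out, in edgeR's test. These were Ep300, Rcor2, Prkd3 and Oaz2 for valproic acid against control and H1f0 for valproic acid against poly(I:C). With the Y-linked genes as a covariate 5 calls remained, Ep300, Mef2c, Prkd3 and Oaz2 for valproic acid against control and Oaz2 for poly(I:C) against control. With Xist as a covariate 0 remained. In that fit poly(I:C) replicate 3 alone parts Xist from the drug, so its values cannot tell sex from exposure. Between valproic acid and control, Ep300 was at 0.25 with Xist in the fit and 0.27 without it, Oaz2 at 0.21 and 0.24, Hsp90ab1 at 0.16 and 0.13, and Mef2c at −0.32 and −0.26. In the same order, Rcor2 was at 0.13 and 0.23, Crebbp at 0.084 and 0.17 and Kat6b at 0.083 and 0.17. Prkd3 was at 0.19 and 0.29, Camk4 at −0.26 and −0.39 and Oaz1 at 0.073 and 0.15. H1f0 between valproic acid and poly(I:C) was at 0.31 with Xist and 0.30 without it. The other 11 calls were lost without at least 1 library. Between valproic acid and control, leaving out control replicate 1 or control replicate 3 ended the calls of Kat6b (adjusted p of 0.0908 and 0.0675 by edgeR) and Hsp90ab1 (0.0819 and 0.0734), as did leaving out valproic acid replicate 2 for Kat6b (0.0800) and valproic acid replicate 3 for Hsp90ab1 (0.0567). Crebbp was lost without replicate 1 (0.1004) or 3 (0.0671) of the controls, or replicate 2 (0.0659) or 3 (0.0629) of valproic acid. Mef2c was lost without replicate 2 (0.0657) or 3 (0.0835) of the controls, or replicate 1 (0.0527) or 2 (0.0617) of valproic acid. Camk4 was lost in 5 of 6 such fits (0.0813 to 0.126, all but the one without valproic acid replicate 2) and Oaz1 in 5 of 6 (0.0822 to 0.149, all but the one without valproic acid replicate 3). Between poly(I:C) and control, Oaz2 was lost in 5 of 6 (0.0615 to 0.107, all but the one without control replicate 2) and Ywhag in all 6 (0.0729 to 0.209). Between valproic acid and poly(I:C), Rcor2 (higher, adjusted p = 0.0485 with all libraries) was lost in all 6 (0.0525 to 0.215), Ywhag (lower, 0.0386) in all 6 (0.0531 to 0.132) and Prkd3 (higher, 0.0295) without replicates 1 or 2 of either group (0.0677 to 0.140).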

How the data were processed

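RNA-seq gene counts of E14 mouse whole brain from 9 libraries, 3 per group as the labels give them, were used. Total RNA was depleted of ribosomal RNA, per the labels' protocols. The authors deposited raw counts per Ensembl gene; alignment with HISAT2 to GRCm39 is named in the submitters' processing notes. The counting tool, with its strand setting, is not given in the sources used here. Symbols, chromosomes, exon lengths and the printed sequences came from GENCODE M21, an annotation of another build, so no coordinates are given; 4675 of 56748 genes had no symbol. Library totals were 15399974 to 19883131 counts, and depth limits Hdac9 and Hdac10 most.

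Genes passing edgeR's filterByExpr (minimum count 10, minimum total 15) were tested with edgeR 4.0.16 (R 4.3.3): TMM scaling, 1 quasi-likelihood fit of all 9 libraries with a mean per group, two-sided F-tests and Benjamini-Hochberg adjustment over 17171 genes, with 0.05 as the threshold. CPM used TMM-scaled library sizes. The SE is the log2 fold change over the square root of F, and 95% intervals use a t quantile at 14.6 degrees of freedom. Copies were sought with BLAST 2.17.0. Alternatives were DESeq2 1.42.0 and its size factors, other filters, 6 libraries only, a replicate block, Xist or Y-linked RNA as a covariate, library totals that leave out globin, ribosomal RNA and mitochondrial genes, pseudogene counts added to Hdac1, and each library left out; adding 3 copies to Hdac1 was chosen after seeing the data. The scripts were tested on simulated data. All 10 members are named; of each related list, up to 4 called genes, or the gene with the smallest p, are. The genes most like Hdac5 and Hdac11 are the 3 with the highest r. Members and lists were chosen with earlier results of these data known. A gene of the corepressor list is not reported here, and the list's counts leave it out.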

Additional observations from a re-analysis of the deposited data

How the results depend on the processing

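Of 510 member values under alternatives, 479 kept their direction and their side of the threshold, 25 changed sign and 6 passed the threshold; every value that changed sign had been small and not called. Between valproic acid and control, 2 members passed without a filter on low counts (Hdac5 and Hdac11), 1 with DESeq2 (Hdac5) and 0 to 1 when a library was left out; between valproic acid and poly(I:C), 1 (Hdac6) passed without the filter. For valproic acid against control, the 1090 calls over all genes became 1661 without the filter, 272 with Y-linked RNA and 19 with Xist as a covariate, and 467 to 789 with a library left out (467 without control replicate 1). For poly(I:C) against control, 92 calls became 464 without the filter, 166 with DESeq2, 42 with Xist, and 38 to 63 with a library left out (38 without control replicate 1). For valproic acid against poly(I:C), 445 became 1057 without the filter, 111 with Y-linked RNA, 39 with Xist, and 112 to 294 with a library left out (112 without poly(I:C) replicate 2). The cause was not tested. With the replicate block the calls were 912, 88 and 340 in the same order and 0 members were called. Same-numbered libraries had r of −0.042 to 0.131 (1 of 9 pairs over 0.1), and libraries of unlike number −0.091 to 0.048. These values cannot decide whether the numbers pair the samples, and the labels do not say, so no pairing was assumed.

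Log2 values that changed sign were, for valproic acid against control, Hdac3 at 0.019 with Y-linked RNA and Hdac9 at −0.0047 with Xist. For poly(I:C) against control with Xist they were Hdac9 at −0.0055, Hdac10 at −0.0062 and Hdac11 at 0.044. For valproic acid against poly(I:C) they were Hdac2 at −0.0050 with Y-linked RNA and Hdac5 at −0.011 with Xist. With a library left out, valproic acid against control ran from −0.036 to 0.0081 for Hdac3, −0.088 to 0.012 for Hdac4 and −0.087 to 0.0056 for Hdac10. Poly(I:C) against control ran from −0.0080 to 0.046 for Hdac3, −0.014 to 0.11 for Hdac9, −0.0046 to 0.11 for Hdac10 and −0.069 to 0.042 for Hdac11. Valproic acid against poly(I:C) ran from −0.016 to 0.031 for Hdac2, −0.027 to 0.037 for Hdac5, −0.17 to 0.028 for Hdac7 and −0.0065 to 0.12 for Hdac9.

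The limits are 3 libraries a group, sex that cannot be told apart from valproic acid exposure, no batch or litter in the labels, and unknown handling of reads shared by Hdac1 and its copies.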
